A study of Mus musculus with 2 samples.

Results

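The matrix metalloproteases (Mmp), the Adamts and Adamts-like (Adamtsl) genes and the tissue inhibitors of metalloproteases (Timp) were described in the embryonic mouse stomach. Members were the protein-coding genes in both gene tables whose GENCODE M21 mouse symbol was Mmp, Adamts, Adamtsl or Timp followed by the family number. This gave 50 of the 21474 protein-coding genes and of the 43346 Ensembl genes measured: 22 Mmp, 19 Adamts, 5 Adamtsl and 4 Timp genes. Total RNA over 200 nt from stomachs of B6NCrl mouse embryos of 16.5 days was sequenced in 2 libraries, biological replicates 1 and 2 of a single group. Each library was a pool of male and female embryos, with 41 embryos named for replicate 2 and no number given for replicate 1. There was no treated or mutant group, so the values describe the members' levels and the distance between the pools.

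The Mmp and Adamts proteins are zinc-dependent proteases that are made as inactive precursors and cut the extracellular matrix, its growth factors and cell surface proteins. Timp proteins bind the active site of Mmp enzymes and block it, and some also block Adam and Adamts enzymes. Adamts-like proteins share the ancillary domains of the Adamts enzymes but have no protease domain. In a growing hollow organ such as the stomach, these genes are known mainly from the mesenchyme, muscle layers, vessels and blood cells that surround the epithelium.

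Expected counts over Ensembl genes summed to 43195887 in replicate 1 and 25151165 in replicate 2. Marker lists for glandular stomach (9 of 9 genes), squamous forestomach (7 of 7), smooth muscle (7 of 7), endothelium (6 of 6) and macrophages (8 of 8) were all at 1 TPM or more in both libraries. Pancreas markers (6 of 6, summing to 7690 and 7591 TPM) and skeletal muscle markers (10 of 10, summing to 2482 and 208.5 TPM in replicates 1 and 2) were also present. TPM is a relative transcript abundance that is corrected for gene length, so levels of different genes can be compared. In bulk tissue, fewer cells of a type and less RNA per cell cannot be told apart. The labels call the libraries biological replicates and give both the same donor entry, so an SD with n = 2 measures the spread between these 2 pools and may be partly technical.

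Most members were expressed, at low to moderate levels. In all, 36 of 50 members (72%) reached 1 TPM in both libraries, beside 64.3% of all protein-coding genes. The share differed by family: all 4 Timp and all 5 Adamtsl genes were detected, as were 16 of 19 Adamts genes and 11 of 22 Mmp genes. The median of the members' mean levels was 3.50 TPM, beside 5.63 TPM over all protein-coding genes. Their summed level was 658.8 TPM in replicate 1 and 703.8 TPM in replicate 2. Of this sum, 4 genes (Mmp2, Mmp14, Timp3 and Timp2) made 47.5% and 47.8%. Levels therefore sat in a few genes, with a long tail of weakly expressed members. In the order of mean TPM, 19 of the 35 neighbouring pairs of detected members had library ranges that overlapped, so their order is not set by these data.

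**Figure D1:**
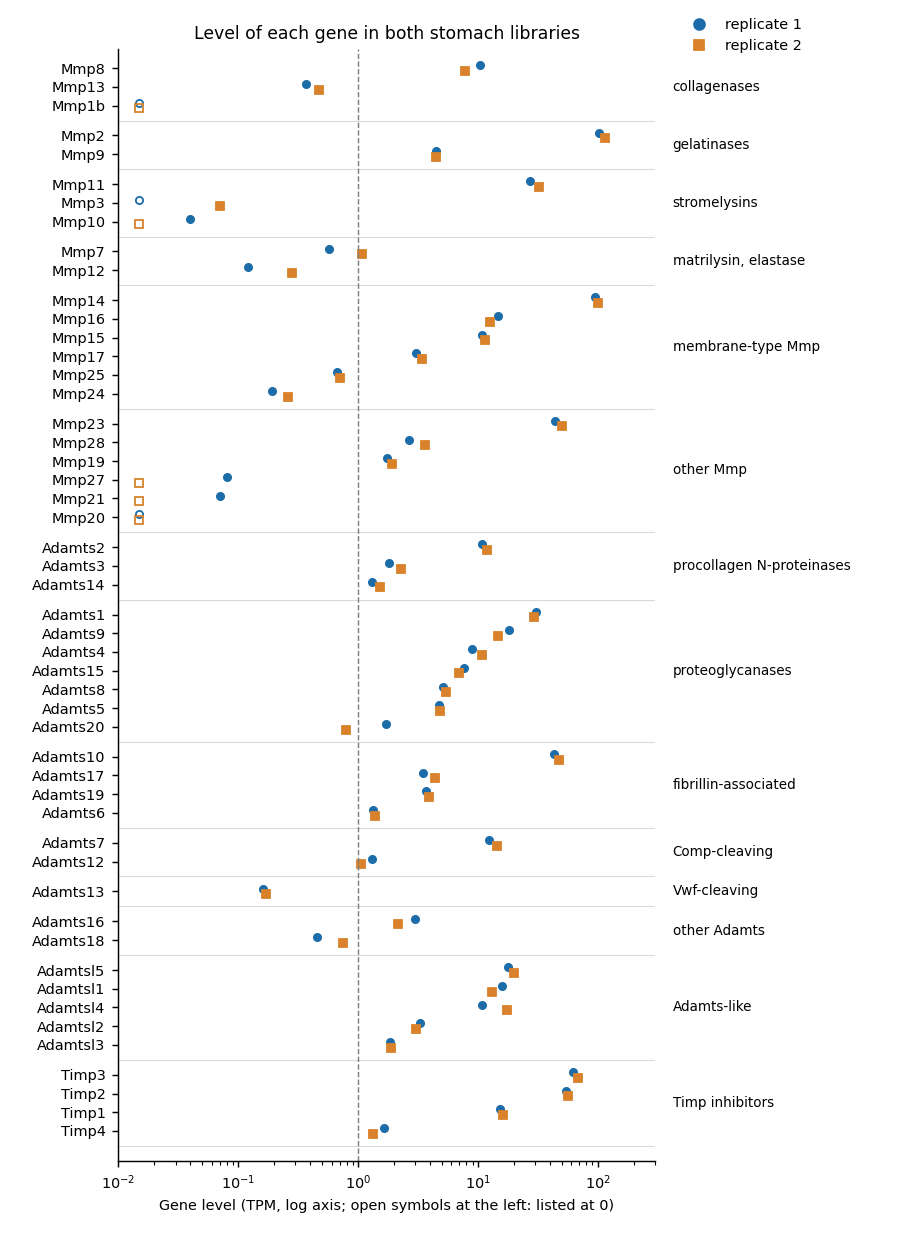
Level of each of the 50 members in TPM on a log axis, by role, with circles for replicate 1, squares for replicate 2 and open symbols for genes listed at 0; the dashed line marks 1 TPM. Mmp2 (102.72 and 113.46 TPM) and Mmp14 (94.86 and 99.29 TPM) lie farthest right, and all 4 Timp genes lie right of the line, while 11 of the 22 Mmp genes do not reach it in both libraries.

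Among the Mmp genes, the gelatinase Mmp2 and the membrane-bound Mmp14 stood far above the rest. Mmp2 (ENSMUSG00000031740; chromosome 8, 92827291 to 92853420, plus strand), which cuts denatured collagen and basement membrane collagen, had 102.72 TPM in replicate 1 and 113.46 TPM in replicate 2, a mean of 108.1 ± 7.59 (SD, n = 2). These rested on 9266 and 5723 expected counts. Mmp14 (chromosome 14, 54431612 to 54445364, plus strand), a transmembrane collagenase that activates pro-Mmp2 at the cell surface, had 94.86 and 99.29 TPM. The library ranges of Mmp2 and Mmp14 did not overlap, and together both genes made 62.1% and 62.0% of all Mmp TPM. Mmp9, the other gelatinase and a product of myeloid cells among others, had 4.49 and 4.50 TPM, far below Mmp2 in each library.

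The other membrane-type members were far lower than Mmp14. Mmp16, a transmembrane collagenase of mesenchymal cells, had 14.56 and 12.47 TPM, and its paralog Mmp15 had 10.76 and 11.35 TPM. Mmp17, which is held in the membrane by a lipid anchor, had 3.04 and 3.41 TPM. Mmp25, the other lipid-anchored member and best known from leukocytes, had 0.66 and 0.71 TPM, under the threshold in both libraries. Mmp24, known mainly from the nervous system, had 0.19 and 0.26 TPM. Its exons share 637 bases with BC029722 on the opposite strand (20.8 and 18.54 TPM), and whether counting used strand is not stated. The membrane-type group thus had 4 of 6 members detected, with Mmp14 making most of its summed 124.1 and 127.5 TPM.

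All 4 inhibitors were detected, and Timp3 and Timp2 carried most of their level. Timp3 (chromosome 10, 86300372 to 86349506, plus strand), which binds to the matrix and also inhibits Adam17 and several Adamts enzymes, had 61.69 and 67.59 TPM. Timp2 (chromosome 11, 118301069 to 118355740, minus strand), which inhibits Mmp enzymes and also takes part in pro-Mmp2 activation by Mmp14, had 53.9 and 55.91 TPM. Both genes together made 87.3% and 87.6% of the summed Timp level. Timp1, a secreted inhibitor encoded on chromosome X, had 15.26 and 16.21 TPM. Timp4, known best from heart and vessels, had 1.63 and 1.33 TPM from 66 and 30 expected counts, whose 95% intervals of counting error ran from 51.0 to 84.0 and from 20.2 to 42.8. Its transcript is 1416 bases long in the tables and 5496 bases in M21, and its TPM rests on the shorter length. The ranges of the 4 genes were separate from each other, in the order Timp3, Timp2, Timp1 and Timp4. The exons of Timp3 share 1733 bases with Syn3 on the opposite strand. Syn3 stood at 3.19 and 2.71 TPM.

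Inhibitor transcripts were fewer than protease transcripts. Summed Timp TPM was 132.5 in replicate 1 and 141 in replicate 2, and summed Mmp TPM was 318.1 and 343.2. The ratio of Timp to Mmp was 0.416 and 0.411, a mean log2 ratio of -1.27 ± 0.0135 (SD, n = 2). The value leaned on the strongest genes, since the log2 ratio was -0.70 without Mmp2 and -0.77 without Mmp14. These are transcript shares and do not give protein amounts or activity.

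The remaining Mmp classes held 1 strong member each or none. Among stromelysins, Mmp11, which furin activates inside the cell and which is known from stroma beside epithelia, had 27.25 and 32.31 TPM. Mmp3 and Mmp10, the secreted stromelysins that cut many matrix proteins, had at most 0.07 TPM in either library. Mmp23 (chromosome 4, 155650655 to 155653384, minus strand), a type II membrane protein without the hemopexin domain, had 43.6 and 50.19 TPM and was the third strongest Mmp gene. Mmp28, known from epithelia, had 2.66 and 3.63 TPM, and Mmp19, which cuts basement membrane proteins, had 1.73 and 1.93 TPM. Mmp19 shares 789 exon bases with Tmem198b on the opposite strand, which had 14.0 and 15.21 TPM. Mmp21, known from left-right patterning of the early embryo, was listed at 0.07 TPM in replicate 1 and at 0 in replicate 2.

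The secreted collagenases, stromelysins and relatives that form a gene cluster on chromosome 9 were almost silent, with Mmp8 as the exception. The cluster holds 9 members in 427 kb (7272514 to 7699585 of GRCm38), in the order Mmp13, Mmp12, Mmp1b, Mmp3, Mmp10, Mmp8, Mmp27, Mmp20 and Mmp7. Mmp8 (chromosome 9, 7558456 to 7568485, plus strand), the collagenase stored in neutrophil granules, had 10.34 TPM in replicate 1 and 7.77 TPM in replicate 2, from 747 and 314 expected counts. The other 8 genes together summed to 1.18 and 1.9 TPM. Mmp8 was thus the only gene of the cluster at 1 TPM or more in both libraries.

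Mmp7, the matrilysin of glandular epithelia, had 0.57 and 1.08 TPM from 17 and 18 expected counts, and passed 1 TPM in replicate 2 only. Mmp13, a collagenase of cartilage and bone, had 0.37 and 0.47 TPM, and Mmp12, the macrophage elastase, had 0.12 and 0.28 TPM. Macrophage markers summed to 485.3 and 383.1 TPM in the same libraries. Of 9 cartilage and bone markers (37.87 and 41.82 TPM in sum), 3 reached 1 TPM. Acp5 alone made 33.26 and 37.17 TPM of that sum, and the next highest of these markers, Col9a1, had 1.58 and 1.34 TPM. Mmp27 was listed at 0.08 and 0 TPM. The collagenase gene Mmp1b and Mmp20, the enamel protease of teeth, had no count in either library. A count of 0 allows up to 3 counts, which for Mmp20 stand for 0.0308 TPM in replicate 1 and 0.0550 TPM in replicate 2.

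**Figure D2:**
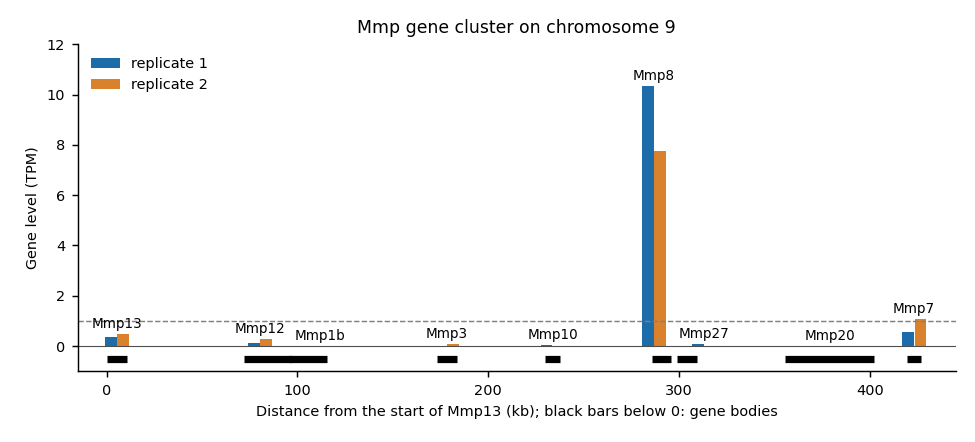
Level in TPM (bars, blue for replicate 1 and orange for replicate 2) of the 9 Mmp genes of the chromosome 9 cluster against distance from the start of Mmp13 in kb; black bars below 0 are gene bodies and the dashed line marks 1 TPM. Mmp8 reaches 10.34 and 7.77 TPM, and the other 8 genes together make 1.18 and 1.9 TPM.

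The promoters of the cluster differed in sequence from those available for members elsewhere. The bases before the start are shown because they carry that difference. The RefSeq promoter table (GRCm38.p6) held 38 windows for 35 of the 50 members, each running from 250 bases before to 50 bases after a gene's start. Windows were searched for TGAGTCA on both strands (reverse complement TGACTCA), the letters bound by AP-1 factors, for TATAAA on the gene's strand, and for GGGCGG on both strands (reverse complement CCGCCC), the GC box. In the runs shown, which give the 100 bases before the start on the gene's strand, capitals mark these 3 motifs. The motifs share no overlapping letters with each other in these runs. From the cluster, 4 genes under 1 TPM (Mmp13 at chr9:7272414-7272513, plus strand; Mmp1b at chr9:7388027-7388126, minus strand; Mmp3 at chr9:7445722-7445821, plus strand; Mmp10 at chr9:7502242-7502341, plus strand) come first:
Mmp13: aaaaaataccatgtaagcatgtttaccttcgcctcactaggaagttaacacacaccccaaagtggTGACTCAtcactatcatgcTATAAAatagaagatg
Mmp1b: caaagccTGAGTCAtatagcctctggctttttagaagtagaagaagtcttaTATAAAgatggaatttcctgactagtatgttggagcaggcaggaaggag
Mmp3: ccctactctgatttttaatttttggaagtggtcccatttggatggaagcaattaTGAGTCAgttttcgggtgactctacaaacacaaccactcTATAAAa
Mmp10: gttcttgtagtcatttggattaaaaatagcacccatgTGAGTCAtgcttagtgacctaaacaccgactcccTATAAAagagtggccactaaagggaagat
Mmp8, the expressed gene of the cluster (chr9:7558329-7558428, plus strand), had none of the 3 motifs in its window. Neither did Mmp27 of the cluster, listed at 0.08 and 0 TPM. Mmp20 of the cluster, with no count, had only TATAAA. The bases of Mmp8 are:
Mmp8: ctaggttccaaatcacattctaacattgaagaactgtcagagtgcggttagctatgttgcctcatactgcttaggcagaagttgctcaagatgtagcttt
Strongly expressed members elsewhere were Mmp14 (chr14:54431498-54431597, plus strand), Timp3 (chr10:86300312-86300411, plus strand) and Adamts1 (chr16:85803114-85803213, minus strand):
Mmp14: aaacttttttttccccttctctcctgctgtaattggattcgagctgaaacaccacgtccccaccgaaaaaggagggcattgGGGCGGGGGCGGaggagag
Timp3: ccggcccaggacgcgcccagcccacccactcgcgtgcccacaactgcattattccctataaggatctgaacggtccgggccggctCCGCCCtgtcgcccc
Adamts1: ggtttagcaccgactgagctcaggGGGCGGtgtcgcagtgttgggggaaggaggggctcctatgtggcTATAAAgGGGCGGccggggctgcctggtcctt

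Counted over all windows, the AP-1 letters stood in 6 of the 11 cluster windows (54.5%) and in none of the 27 windows of members elsewhere. They occurred in 5.20% of all 32851 windows of the table. TATAAA was present in 7 of 11 cluster windows (63.6%), in 3 of 27 windows elsewhere (11.1%) and in 8.32% of all windows. GGGCGG showed the opposite split, with 0 of 11 cluster windows, 22 of 27 windows elsewhere (81.5%) and 35.7% of all windows. Each of the 9 cluster genes had a window. Outside the cluster, Mmp2, Mmp9, Mmp16, Adamts4, Adamts5 and Adamts10, among others, had none, so the shares elsewhere leave these genes out. A match gives letters in a window and not a bound site, and a window without a match says nothing of the factor.

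The Adamts proteoglycanases, which cut versican and aggrecan, were detected in 6 of 7 cases. Adamts1 (chromosome 16, 85793827 to 85803113, minus strand) led this class with 30.17 TPM in replicate 1 and 29.5 TPM in replicate 2. Adamts9, which also has roles at the base of the primary cilium, had 18.25 and 14.58 TPM, and Adamts4 had 8.88 and 10.76 TPM. By gene level, the ranges of these 3 genes did not overlap each other. On coding transcripts alone, Adamts9 had 1.85 and 1.73 TPM, under Adamts4, Adamts15, Adamts8 and Adamts5 in both libraries. Adamts15 had 7.64 and 6.9 TPM, Adamts8 had 5.11 and 5.42 TPM, and Adamts5, a main aggrecanase of cartilage, had 4.72 and 4.77 TPM. Adamts20, known from pigment cell migration in mice, had 1.71 TPM in replicate 1 and 0.79 TPM in replicate 2, on either side of the threshold.

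Enzymes that work on collagen precursors and microfibrils were detected in full. Of the procollagen N-proteinases, which remove the amino-terminal propeptide of fibrillar collagens, Adamts2 had 10.74 and 11.95 TPM. Adamts3, which also takes part in Vegfc activation, had 1.82 and 2.26 TPM, and Adamts14 had 1.31 and 1.53 TPM. The Adamts3 transcript is 7579 bases long in the tables and 3934 bases in M21, and its TPM rests on the longer length. Adamts2 thus carried most of the level of this class in both libraries. Among the genes tied to fibrillin microfibrils or closely related to them, Adamts10 (chromosome 17, 33524204 to 33553782, plus strand) had 42.78 and 47.59 TPM, the highest summed level of any Adamts gene. On coding transcripts alone it had 6.60 and 9.78 TPM, under the 29.35 and 28.69 TPM of Adamts1. Adamts17 had 3.46 and 4.37 TPM, Adamts19 had 3.66 and 3.9 TPM, and Adamts6 had 1.34 and 1.38 TPM. Human ADAMTS10 and ADAMTS17 are known from Weill-Marchesani syndrome, a disorder of connective tissue.

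The other Adamts genes ranged from moderate levels to near 0. Adamts7, which cuts the cartilage protein Comp, had 12.28 and 14.47 TPM, and its paralog Adamts12 had 1.31 and 1.06 TPM. Comp itself was at 0.17 and 0.13 TPM. Adamts16, a gene with roles in kidney and gonad, had 2.98 and 2.17 TPM, and its paralog Adamts18 had 0.45 and 0.75 TPM. Adamts13, the protease that trims von Willebrand factor and is made mainly in liver, had 0.16 and 0.17 TPM from 17 and 10 expected counts. Vwf, its substrate, had 4.39 and 5.72 TPM.

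All 5 Adamts-like genes were detected, and 3 of them lay close together. Adamtsl5, which binds fibrillin microfibrils, had 17.62 and 20.04 TPM. Adamtsl1 had 15.94 and 12.96 TPM, and Adamtsl4, known in humans from displacement of the eye lens, had 10.84 and 17.33 TPM. The range of Adamtsl4 covered that of Adamtsl1, so their order was not set. On coding transcripts alone, Adamtsl4 (9.45 and 12.52 TPM) stood above Adamtsl5 (8.54 and 8.66 TPM) in both libraries. Adamtsl2, known in humans from geleophysic dysplasia, had 3.25 and 3.03 TPM, and Adamtsl3 had 1.83 and 1.88 TPM.

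The level of a gene did not always stand for a transcript that encodes the protease. Of the TPM of detected members, 83.8% in replicate 1 and 82.5% in replicate 2 lay on transcripts annotated as protein-coding. The share was 99.3% and 99.7% for Timp genes and 92.2% and 89.4% for Mmp genes, but 61.1% and 61.4% for Adamts genes and 60.7% and 59.1% for Adamtsl genes. In 18 of the 36 detected members all TPM lay on coding transcripts, and in 3 members coding transcripts made less than 50% in both libraries. These 3 were Adamts9, Adamts10 and Adamtsl5. Of the 18, 11 had a single listed transcript, a coding one, so their share could only be 100%. Mmp2 and Mmp14 are among these 11 and weigh on the Mmp share. Such shares are not given over all protein-coding genes, so whether they are unusual for these families was not tested.

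Adamts9 was the extreme case. Its retained-intron transcript Adamts9-203 (4519 bases) had 13.87 and 10.79 TPM, or 76.0% and 74.0% of the gene, while its coding transcripts summed to 1.85 and 1.73 TPM. Adamts9-203 overlaps A730049H05Rik on the opposite strand by 1215 bases, and that gene had 0.70 and 0.39 TPM. For Adamts10, coding transcripts had 6.60 and 9.78 TPM, and the leading transcript was Adamts10-207 (12.22 and 13.06 TPM), annotated for nonsense-mediated decay. On coding transcripts alone, Adamts10 moved from rank 6 to rank 18 of the 50 members and Adamts9 from rank 10 to rank 31. All 36 detected members also reached 1 TPM in both libraries on coding transcripts alone.

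The genes that led their class mostly did so through a coding transcript. Mmp2-201, Mmp14-201, Mmp8-201 and Mmp7-201 are the only transcripts of their genes in the tables. Timp3-201 carried 98.1% and 99.3% of Timp3, Adamts1-201 95.9% and 96.7% of Adamts1, and Adamts2-201 85.6% and 84.7% of Adamts2. Smaller shares were found for Mmp11-201 (79.7% and 64.8%), Mmp23-201 (58.7% and 55.6%) and Adamts7-201 (58.2% and 44.0%). Adamts16-201 and Adamts13-201 made nearly all of their genes. Among the 25 detected members with several transcripts, the leading transcript was the same in both libraries for 22, and the exceptions were Timp1, Adamtsl2 and Adamtsl5. For Timp1, the coding transcripts Timp1-201 (8 and 7.13 TPM) and Timp1-202 (7.26 and 9.08 TPM) changed places. Transcripts of a gene share sequence, so these shares are the quantifier's estimates. The count of 22 of 25 has no value over all genes beside it.

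**Figure D3:**
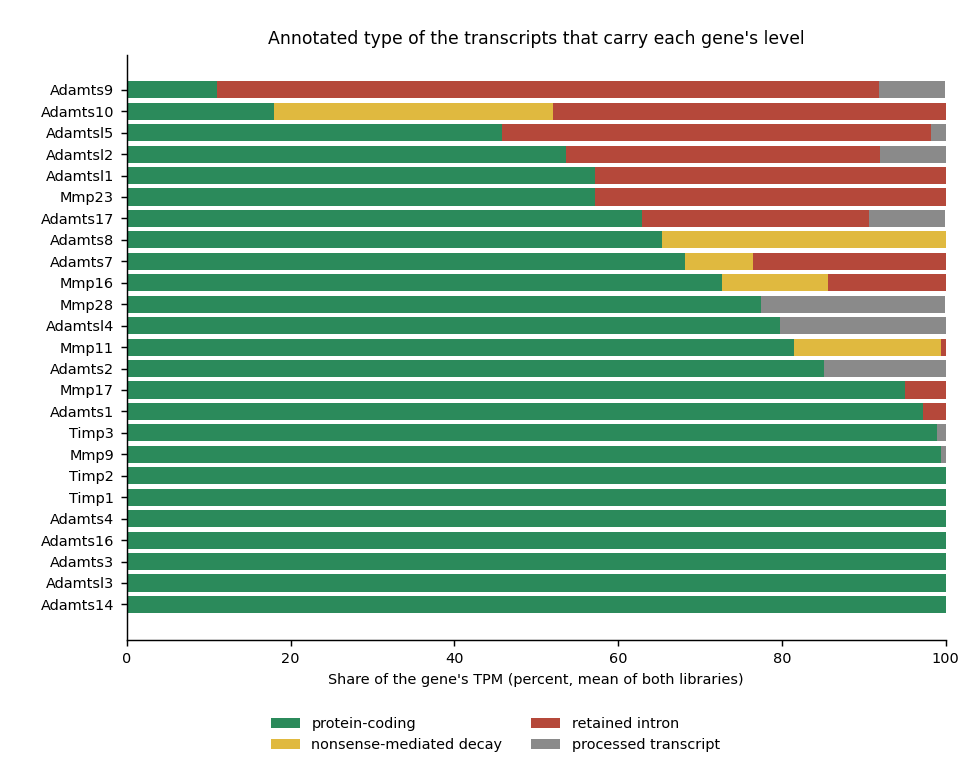
Share of each gene's TPM by the annotated type of its transcripts, as the mean of both libraries in percent, for the 25 detected members with several transcripts. Coding transcripts (green) make the smallest share in Adamts9 (10.1% and 11.9% in replicates 1 and 2) and Adamts10 (15.4% and 20.6%), and all of Timp2 and Timp1.

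Most members differed little between the pools, with the ratio of Adamts20 (0.59 on the log2 scale) highest and that of Mmp7 (-0.80) lowest. Of the 43 members past the filter on low counts, 0 lay beyond 2-fold between replicate 1 and replicate 2, beside 2.02% of the 15415 protein-coding genes past it, so the share of members is near the background. The count was 3 with spike-in scaling (Adamts18, Adamtsl4 and Mmp7), 1 on the TPM scale (Adamts20) and 4 with no filter. The share of all genes beyond 2-fold is not given for these settings, so these counts have no background beside them. With 1 library on each side there is no replicate check of a ratio, so no p-value was computed. In all, 39 of 43 members were within 0.5 on the log2 scale, and the share of all protein-coding genes within 0.5 is not given. The median of the absolute log2 ratio was 0.167 for members, above the 0.126 of protein-coding genes. Members lay slightly lower in replicate 1, with a median log2 ratio of -0.06 and 13 higher and 30 lower, and with spike-in scaling 1 was higher and 42 were lower. That scaling moved the median of all 17763 genes past the filter to -0.57, and relative to that median 14 members were higher and 29 lower. Over all protein-coding genes past the filter, 7879 were higher and 7536 lower with TMM scaling, with a median of 0.00488.

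The 4 members beyond 0.5 were Mmp7, Adamts18, Adamts20 and Adamtsl4. For Mmp7 the log2 ratio of replicate 1 over replicate 2 was -0.80, with a 95% interval of counting error from -1.93 to 0.15, which includes 0. Adamts18 had -0.69 (-1.19 to -0.22) and Adamtsl4 had -0.50 (-0.64 to -0.37). Adamts20 was higher in replicate 1 on every scaling, with 0.59 by counts (0.25 to 0.96), 1.02 on the TPM scale and 0.02 with spike-ins. Its retained-intron transcript Adamts20-203 had 0.74 TPM in replicate 1 and 0 in replicate 2, and its coding transcripts summed to 0.97 and 0.79 TPM. Mmp11, Adamtsl2, Adamts5 and Mmp9 changed sign between counts and TPM. Adamts5 had a log2 ratio of 0.02 by counts and -0.01 by TPM, and Mmp9 had 0.04 and -0.0031. Adamtsl2 had a log2 ratio of -0.33 by counts (-0.66 to -0.0075) and 0.10 by TPM. For Mmp11 it was 0.06 by counts and -0.24 by TPM. The short decay transcript Mmp11-203 (335 bases) had 2.45 TPM in replicate 1 and 8.67 TPM in replicate 2.

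Some marker lists also differed between the libraries. Mmp8 had a log2 ratio of 0.45 (-0.13 with spike-ins, where the median of all genes was -0.57), and the neutrophil and mast cell list was higher in replicate 1 for 9 of 9 genes (6 of 9 with spike-ins). That list summed to 745.4 TPM in replicate 1 and 508 TPM in replicate 2, with a median log2 ratio of 0.62 (0.04 with spike-ins) and no gene at 0. Its ratios ran from 0.14 (Mpo) to 1.01 (Cpa3). Mmp9 and Mmp25, members also known from myeloid cells or leukocytes, had log2 ratios of 0.04 and -0.08. The squamous list (sums of 4028 and 6947 TPM) and the glandular list (6652 and 10923.9 TPM) were lower in replicate 1 for 7 of 7 and 9 of 9 genes on every scaling, as was Mmp7. Smooth muscle markers (sums of 4585 and 5620 TPM) were lower in replicate 1 for 6 of 7 genes (7 of 7 with spike-ins), with a median log2 ratio of -0.22, the same direction as most members. Endothelial markers summed to 205.9 and 219.8 TPM. Skeletal muscle markers were higher in replicate 1 for 10 of 10 genes, with a median log2 ratio of 4.47. Other single markers beyond 2-fold were Cpa3 of mast cells (1.01), Sprr3 of squamous cells (-1.24), Gkn1 and Gkn2 of gastric surface cells (-1.76 and -1.64) and Ibsp of bone (-1.37, from levels under 1 TPM). The part of these lists in the members' ratios was not tested.

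**Figure D4:**
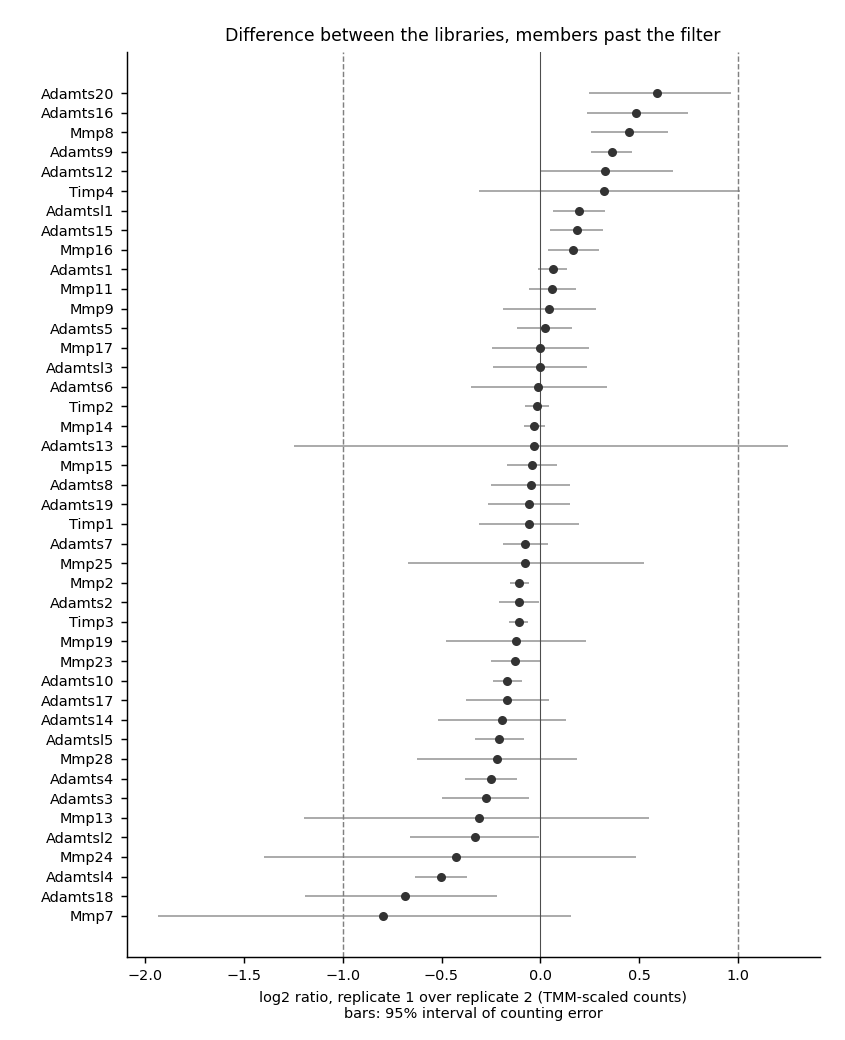
log2 ratio of replicate 1 over replicate 2 on TMM-scaled counts for the 43 members past the filter, with bars for the 95% interval of counting error and dashed lines at 2-fold. No point lies beyond 2-fold, and Adamts20 (0.59) and Mmp7 (-0.80) are the ends of the range.

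Most of the listed genes that activate, anchor or restrain these proteases were detected. Of 26 chosen activators and regulators, 22 (84.6%) were detected, beside 64.3% of all protein-coding genes. The list was chosen with earlier results of these data known, so its share says nothing of such genes in general. None of the 25 past the filter was beyond 2-fold between the libraries with TMM scaling, beside 2.02% of protein-coding genes past it. Klk1 was beyond 2-fold on the TPM scale, and Klk1 and Plau were with spike-ins, where the median log2 ratio of all genes was -0.57. The share of all genes beyond 2-fold is not given for these settings. The highest were Bsg (843.44 and 824.41 TPM), a surface protein known to induce Mmp genes, and Cav1 (351.41 and 397.82 TPM), the caveolar coat protein. Pcolce, which enhances procollagen C-proteinase, had 118.07 and 126.72 TPM, and Lrp1, the receptor that clears several of these proteases, had 76.98 and 85.01 TPM. Reck, a membrane-anchored inhibitor of Mmp enzymes, had 19.26 and 21.31 TPM, more than Timp1 in both libraries. Furin, which activates Mmp11, Mmp14 and many Adamts proteins, had 7.03 and 8.0 TPM, and Plau, the urokinase gene, had 1.52 and 2.31 TPM.

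Substrates of these enzymes were among the strong transcripts of the tissue. Of 31 chosen substrates, 26 (83.9%) were detected, beside 64.3% of all protein-coding genes. This list too was chosen with earlier results of these data known. None of the 30 past the filter was beyond 2-fold with TMM scaling, beside 2.02% of protein-coding genes. Bcan, Hbegf and Ncan were beyond 2-fold with spike-ins, where the median log2 ratio of all genes was -0.57. The share of all genes beyond 2-fold is not given for that scaling. The fibrillar collagen genes Col3a1 (2405 and 2771 TPM), Col1a1 (1682 and 1733 TPM) and Col1a2 (986.06 and 986.79 TPM) and the small proteoglycan gene Dcn (578.95 and 656.1 TPM) led. Vcan, the versican that Adamts proteoglycanases cut, had 23.19 and 23.58 TPM. Acan, the aggrecan of cartilage, had 0.33 and 0.21 TPM. By transcript level, Vcan stood above Acan in both libraries. Fbn1 and Fbn2, the fibrillins, had 27.29 and 26.25 TPM and 31.59 and 31.12 TPM.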

How the data were processed

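Total RNA-seq of embryonic stomach was deposited as 1 gene table and 1 transcript table for each library. Per the labels, the mirVana method gave the RNA, 10 ng entered each library, ERCC spike-ins were added, and a SMARTer Ultra Low kit manual is listed. The deposited text files name mm10 and annotation M4. Aligner, quantifier and use of strand were not given in the sources used here. Per the file headers, the tables hold expected counts, which are estimated reads for each gene or transcript. The authors deposited TPM and posterior mean TPM, which are relative transcript abundances corrected for length. The authors also deposited FPKM, which divides by length and by sequencing depth. A percent of the gene's level per transcript was deposited by the authors too; shares given here were computed from TPM.

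Of 69691 entries in a gene table, 43346 were Ensembl genes. Spike-ins (3.08% and 2.05% of expected counts in replicates 1 and 2) and features with numeric names stayed out of library sizes. Symbols, types and positions came from GENCODE M21 (GRCm38), where Mmp1a is typed as a pseudogene and so was no member. All 159 transcripts of the members had a name there, and 137 had the same length. Members and lists were chosen with earlier results of these data known. A gene counted as detected at 1 TPM in each library. Expected counts were rounded and filtered with filterByExpr (1 group), and edgeR 4.0.16 in R 4.3.3 gave TMM factors of 1.01 and 0.992. Log2 ratios used a prior count of 2, and ratios of TPM a pseudocount of 0.1. With 1 group no test between conditions was possible. A chi-square of the counts (26.5 per degree of freedom) checked whether both tables held the same library, and they were counted as 2 libraries. The ratio step was tested on simulated data. Intervals are exact and cover counting error only, and a count of 0 allows up to 3 counts (one-sided 95% bound).

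Every member is accounted for: those with a mean of 1 TPM or more, or near that threshold, with values, and the rest by name and range. From the lists of regulators, substrates and other proteases the 4 highest genes were named; marker lists are given by their sums with any gene beyond 2-fold. Reck, Furin, Plau, Vcan, Acan, Comp, Vwf, Fbn1 and Fbn2 were added for their roles after their values were seen. Alternatives changed the threshold, unit, scaling (size factors of DESeq2 1.42.0, spike-ins, none), filter, prior count or library; coding transcripts alone were added after the data were seen. The 3 promoter motifs, and the 8 genes whose promoters are shown, were also chosen with levels known. Other software was Python 3.11.15 with pandas 2.3.3, numpy 2.4.6, matplotlib 3.10.9 and scipy 1.17.1.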

Additional observations from a re-analysis of the deposited data

How the results depend on the processing

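At a threshold of 5 TPM, 21 members were detected instead of 36; at 0.5 TPM, with posterior mean TPM, with FPKM and on coding transcripts alone the count ran from 32 to 39. The median level of 3.50 TPM became 2.38 in FPKM and 2.52 TPM on coding transcripts alone. The log2 ratio of summed Timp to Mmp TPM was -1.14 on coding transcripts and -0.70 without Mmp2, and -0.77 without Mmp14 (added after the data were seen), instead of -1.27. Members beyond 2-fold numbered 0 with TMM, DESeq2 size factors or a prior count of 0.5. With spike-in scaling there were 3 (Adamts18, Adamtsl4 and Mmp7), with unscaled TPM 1 (Adamts20), and with no filter 4 (Mmp3, Mmp12, Mmp21 and Mmp27), which are genes of a few counts. The share over all genes is given for TMM scaling only. The median log2 ratio of -0.06 became -0.63 with spike-ins, where the median of all genes was -0.57, and -0.0893 with unscaled TPM. The leading transcript was the same for 14 of 16 members at 5 TPM or more, beside 22 of 25. Leaving out either replicate, which gives the other library's value, gave 37 detected members, a median between 3.35 and 3.77 TPM and a log2 Timp to Mmp ratio between -1.28 and -1.26. Of the values of single members under alternatives, leaving out the single-library values, 55 levels were within 1 SD of the main one and 56 moved, most of them in FPKM; 173 log2 ratios stayed within counting error and 42 moved, most of them with spike-ins. The cause of the spike-in shift was not tested. No paired analysis was possible because there is 1 group. Depth limits members with few counts, such as Mmp7, Mmp13, Mmp24 and Adamts13, whose counting intervals are wide.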

Other observations

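The other listed enzymes that act on the matrix or on cell surface proteins were detected in full. All 18 of 18 genes of a list of Adam proteases, meprins, cathepsins and heparanase reached 1 TPM in both libraries, beside 64.3% of all protein-coding genes. The list was chosen with earlier results of these data known. None was beyond 2-fold with TMM scaling, beside 2.02% of protein-coding genes past the filter. Adam28 was beyond it with spike-ins, where the median log2 ratio of all genes was -0.57 and the share of all genes is not given. The lysosomal cathepsins led, with Ctsb at 189.19 TPM in replicate 1 and 206.73 TPM in replicate 2, and Ctsl at 171.65 and 166.67 TPM, each above Mmp2. Adam10, a main sheddase of Notch and cadherins, had 69.4 and 71.09 TPM, and Adam15 had 49.49 and 58.3 TPM. Adam17, the sheddase that Timp3 inhibits, had 30.19 and 34.2 TPM, under Timp3 in each library. The meprin genes Mep1a (2.70 and 2.31 TPM) and Mep1b (1.82 and 2.10 TPM), known from brush border epithelia, were at the low end together with Adam23 (1.57 and 1.65 TPM). Adam17, Mep1a, Mep1b and Adam23 were named for their roles or low values after these were seen.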
